A study of Bos taurus with 2 samples.

Results

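Imprinted genes are expressed mainly from the copy inherited from 1 parent, and a set of 36 of them was followed here through the DNA methylation of cattle bone. The members were named by symbol as genes reported to be imprinted in mammals, a choice made with earlier results of these data known although its rule uses no methylation value, and all 36 of 36 were found among the 26691 protein-coding and long non-coding RNA genes that the gene table places on chromosomes 1 to 29 and X. All 36 lie on autosomes, 34 code for proteins, and H19 and MEG3 are long non-coding RNAs. At each imprinted cluster, parental copies are told apart by an imprinting control region, a stretch of DNA rich in CpG (cytosine followed by guanine) that is methylated on the maternal or on the paternal copy. Such marks are set in the egg or sperm and are kept in body tissues through the wave of demethylation after fertilisation. A bulk sample in which every cell has 1 methylated and 1 unmethylated copy gives a level midway between the extremes at such a region, whereas CpG islands at the starts of other genes are mostly free of methylation.

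Whole-genome bisulfite sequencing, which reads methylated cytosines as C and unmethylated ones as T, was done on 2 bone samples of female Holstein cattle, Bone_1 and Bone_2. The samples form a single untreated group, the labels do not say whether they came from 1 animal or 2, and the SD over them describes only the spread between these samples. The deposited counts held 582241763 CpG calls for Bone_1 and 440334436 for Bone_2, and on chromosomes 1 to 29 and X 72.3% of the calls of Bone_1 and 58.7% of those of Bone_2 were methylated. The source of this offset between the libraries was not tested. The tissue label cannot be checked by expression in such data. Among gene ends, the bone genes SP7 and COL1A1 were at 2.04% and 12.7% in Bone_1 and at 10.2% and 17.3% in Bone_2, while RUNX2 was at 87% and 60%, BGLAP at 87.3% and 56.5%, and SPP1 at 46% and 49.2%. IBSP had too few calls in Bone_1. The blood genes PTPRC, CD3E and SPI1 were at 34.3%, 85.8% and 44.2% in Bone_1 and at 42.1%, 69% and 35.4% in Bone_2. Neither list was thus low throughout at these CpG-richer ends, which need not be starts of transcription. At the other annotated end RUNX2 was at 27.3% and 28.5%, CD3E at 17% and 13.7%, and BGLAP at 62.1% and 55%. SP7, COL1A1, SPP1, PTPRC and SPI1 were higher there in both samples.

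Each member was described in a pair of measures. The first is the weighted level (methylated calls over all calls) of a 1500 bp region at 1 annotated end of the gene, from 1000 bp outside to 500 bp inside. The gene table gives no strand, so the end with more CpG sites was taken, a choice that uses no methylation value and that need not be the start of transcription. The second is the level of each 1 kb window from 10 kb below to 10 kb above the gene, with windows of at least 30 CpG sites called CpG-dense. A level from 30 to 70% in both samples is called intermediate here. Both measures needed at least 20 calls in each sample, and all 36 member ends passed.

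Intermediate levels were more frequent at the ends of these 36 members than at gene ends in general. Of the 36 members, 13 (36.1%) were intermediate, against 11.1% of all 25436 autosomal gene ends with enough calls. The members were CpG-rich, with a median of 96 sites per end against 60 for all autosomal genes, and among ends with 60 or more sites the contrast was wider, at 9 of 28 members (32.1%) against 2.35% of 12824. Under 20% in both samples were 11 members (30.6%, against 45.8% of all autosomal ends). Among ends with 60 or more sites these were 11 of 28 members (39.3%), against 81% of autosomal ends. Over 70% in both were 3 members (8.33%, against 7.36%). The other 9 met none of these limits in both samples, as did 9089 of the 25436 autosomal ends. The median member end was at 40% in Bone_1 and 32.3% in Bone_2, above the 20% and 22.6% of all autosomal ends. In Bone_1 alone 14 members were from 30 to 70%, against 13.4% of all autosomal ends, and in Bone_2 alone 18, against 38.2%. With unweighted means KCNQ1 (38.2% and 36.7%), DLK1 (38.7% and 36.8%) and NDN (41% and 32.3%) were intermediate, and ZIM2 (21.6%), PEG10 (29.2%) and SGCE (29.6%) fell under the limit in Bone_2. These shares describe a list, and no test of the list was run. Ends of neighbouring members can share sequence, as those of PEG10 and SGCE did. Of 39 further genes reported as imprinted, 3 ends (7.69%) were intermediate.

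**Figure D1:**
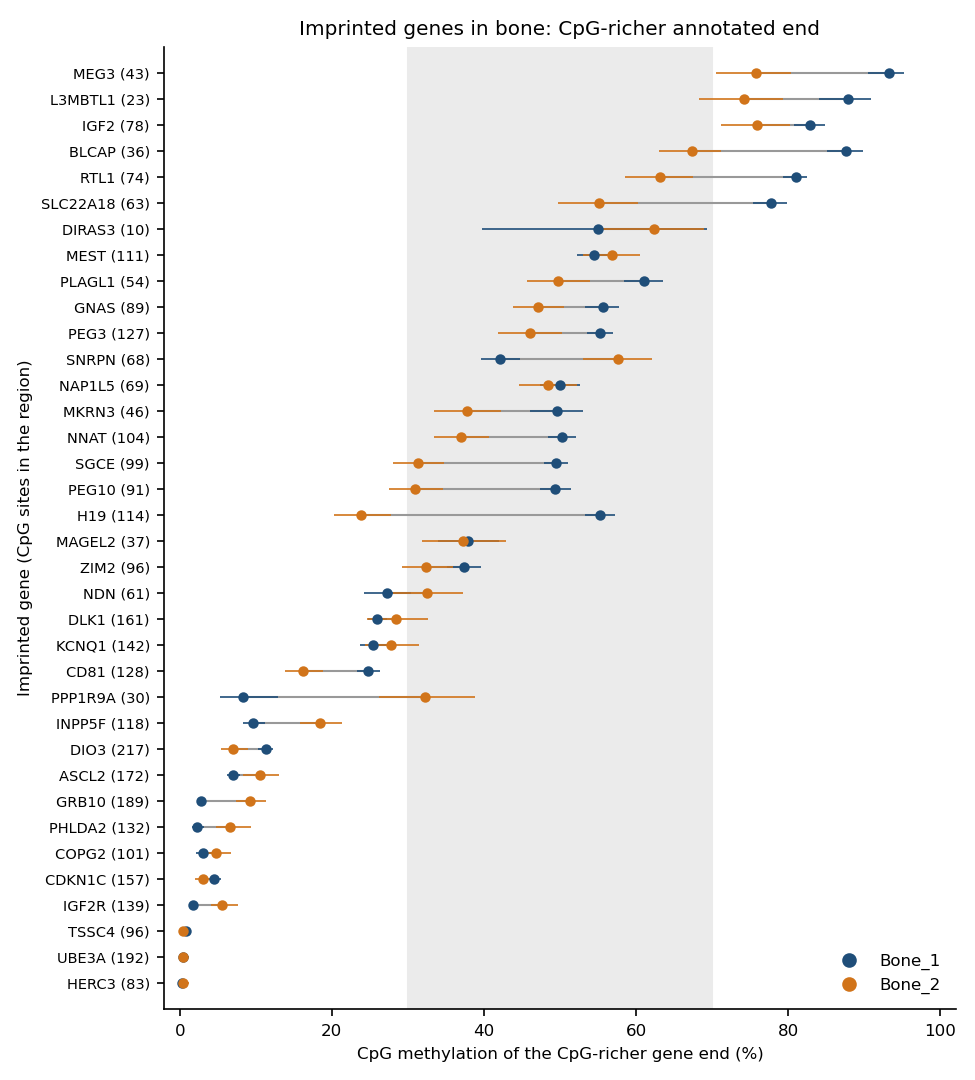
Methylation (%) of the CpG-richer annotated end of each imprinted gene, with the number of CpG sites in the region in parentheses. Points are the samples, bars their 95% Wilson intervals, and the grey band marks 30 to 70%; 13 genes have both points in the band and 11 have both under 20%.

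IGF2, a fetal growth factor, and H19, the long non-coding RNA next to it, lie on chromosome 29, share enhancers and are switched in opposite directions by a control region between them. The end of H19 was at 55.3% in Bone_1 and 23.8% in Bone_2, a mean of 39.5% ± 22.2 (SD, n = 2). It therefore fell outside the intermediate range in Bone_2 alone, and its difference of 31.4 percentage points was the largest among the 36 ends (Fisher's exact test, adjusted p = 1.32e-36). On the side of H19 that faces IGF2, 4 CpG-dense windows in a row from position 49505001 to 49509000 were intermediate. Their levels in Bone_1 were 49.6%, 47.2%, 61.5% and 60.6%. In Bone_2 they were 47.7%, 48.8%, 52.6% and 50.2%. The first and second of these windows differed by 1.95 and −1.56 points and were not called (Fisher's exact test, adjusted p = 0.608 and 0.646), while the H19 end itself, a few kilobases on, had the large difference. In all, 8 of the 22 CpG-dense windows at H19 were intermediate. The end of IGF2 was methylated in both samples, at 82.9% and 75.9%, and 8 of its 37 CpG-dense windows were intermediate. The one with most CpG sites (65) was at 67.3% in Bone_1 and 46.1% in Bone_2. Of its 31 sites with at least 20 pooled calls, 17 were between 25 and 75%.

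KCNQ1, a potassium channel gene, hosts the control region of the second domain of that chromosome in an intron, at the start of an antisense RNA whose symbol was not matched in the gene table. Its richer end was at 25.4% and 27.8%. The median window of the KCNQ1 locus was at 83.3% and 64.1%, and 12 of its 178 CpG-dense windows (6.74%, beside 8.98% of all such autosomal windows) were intermediate. The densest of the 12, chr29:48909001-48910000, had 80 CpG sites and was at 46.4% in Bone_1 (95% Wilson interval 44.7 to 48.0%) and at 34.8% in Bone_2 (31.5 to 38.3%). Of its 80 sites with at least 20 pooled calls, 79 were individually between 25 and 75%. The other KCNQ1 windows with covered sites were mixed, with 32.3 to 95% of sites in that range. The windows 2 and 3 kb below were back at 71.1% and 83.8% in Bone_1 and at 51.4% and 70.9% in Bone_2.

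At their CpG-richer ends the genes around KCNQ1 were mostly unmethylated. CDKN1C, a cell cycle inhibitor, was at 4.57% and 3.12%, and PHLDA2, which restrains placental growth, was at 2.25% and 6.68%. The low level of PHLDA2 held close to the end, as with a region of doubled size its mean was 26.1%. TSSC4 was at 0.797% and 0.45%, and ASCL2, a transcription factor of the trophoblast, at 6.99% and 10.5%. The remaining CpG-richer ends of this domain were not low in both samples. SLC22A18, an organic cation transporter, was at 77.7% and 55.1%, and CD81, a tetraspanin of the cell surface, was at 24.8% and 16.2%. The other annotated ends of these genes were higher in both samples. There CDKN1C was at 40.8% and 43.2%, PHLDA2 at 61.1% and 46.8%, and ASCL2 at 61.9% and 34.8%. TSSC4 was at 87% and 78.4%, SLC22A18 at 85.4% and 57.6%, and CD81 at 81.4% and 72.9%. Intermediate CpG-dense windows at these genes were 1 of 12 at CDKN1C (60.2% and 43.3%), 1 of 13 at ASCL2 (38.5% and 39.8%) and 7 of 27 at CD81. These shares were 8.33%, 7.69% and 25.9%, beside 8.98% of all such autosomal windows. PHLDA2 and SLC22A18 shared 3, from 38.8 to 69.7% in Bone_1 and from 41.2 to 55.3% in Bone_2. TSSC4 had 2, both shared with CD81, at 44.5% and 65.9% in Bone_1 and at 36.2% and 64.2% in Bone_2. The sites of these windows around KCNQ1 were mixed, with 8.7 to 86.7% of covered sites between 25 and 75%. In the lowest, shared by TSSC4 and CD81, 2 of 23 sites were in that range, 14 were under it and 7 over it.

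PEG3, a zinc finger gene, and its neighbour ZIM2 lie on chromosome 18. The end of PEG3 was at 55.3% in Bone_1 and 46.0% in Bone_2, and that of ZIM2 at 37.4% and 32.4%. A row of 4 intermediate windows, chr18:64120001-64124000, covered the higher end of PEG3, with 60, 65, 79 and 89 CpG sites. They were at 33.8%, 47.4%, 49.6% and 60.7% in Bone_1 and at 31.6%, 45.5%, 39.1% and 40.3% in Bone_2. The level climbed across the row in Bone_1 only, and the last of these PEG3 windows differed by 20.3 points between the samples (Fisher's exact test, adjusted p = 2.09e-13). ZIM2 had 2 intermediate windows among its 4 CpG-dense ones, at 46.0% and 59.9% in Bone_1 and 30.4% and 43.7% in Bone_2. Their sites were mixed. Between 25 and 75% were 18 of 26 covered sites at chr18:64021001-64022000 and 1 of 7 at chr18:64031001-64032000.

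Chromosome 4 carries several members. PEG10, a gene derived from a retrotransposon, and SGCE, which encodes epsilon-sarcoglycan, run in opposite directions from a shared CpG-rich stretch. PEG10 was at 49.4% in Bone_1 and 30.9% in Bone_2, and the overlapping end of SGCE at 49.5% and 31.3%. Bone_2 therefore sat just inside the lower limit at both, and the differences of 18.4 and 18.2 points passed the test (Fisher's exact test, adjusted p = 3.58e-16 and 1.07e-18). Against the odds ratio between all calls of the samples, 1.84, neither was called (Fisher's exact test, adjusted p = 0.111 for PEG10 and 0.11 for SGCE). The windows that PEG10 and SGCE share went in opposite directions, with 51.8% and 39.9% at 67 CpG sites and 33.9% and 43.9% at the next 38. PPP1R9A, which encodes the actin-binding protein neurabin, lies on the same chromosome and had no intermediate window among its 4 CpG-dense ones. Its end was at 8.33% in Bone_1 and 32.2% in Bone_2, a difference of −23.9 points, on 204 and 208 calls (Fisher's exact test, adjusted p = 4.36e-09). With unweighted means over CpG sites PPP1R9A was at 8.84% and 15.2%, a difference of −6.36 points.

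MEST, which encodes a hydrolase-like protein of mesodermal tissue, showed 1 of the smaller differences among the intermediate ends. It was at 54.5% and 56.8%, a mean of 55.6% ± 1.62 (SD, n = 2), and the difference was not called (Fisher's exact test, adjusted p = 0.39). A row of 3 windows, from 94249001 to 94252000 on chromosome 4, were intermediate, and the middle one with 77 CpG sites was at 54.2% and 55.0%. All 49 sites of the MEST window with at least 20 pooled calls were between 25 and 75%. COPG2, which encodes a coatomer subunit and lies beside MEST, had an unmethylated end at 3.13% and 4.82% and a single intermediate window of 30 CpG sites at 68.9% and 58.2%. GRB10, an adaptor that dampens insulin signalling, also lies on chromosome 4. Its end was at 2.78% and 9.20%, and none of its 26 CpG-dense windows was intermediate.

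On chromosome 21 the genes whose human counterparts form the Prader-Willi and Angelman region lie together. SNRPN, a splicing factor gene whose start is the control region of that domain in other mammals, was at 42.1% in Bone_1 and 57.6% in Bone_2. It was 1 of the 7 members called higher in the sample with the lower genome-wide level (difference −15.5 points, Fisher's exact test, adjusted p = 3.54e-08). The 2 CpG-dense windows of SNRPN were both intermediate, at 39.4% and 43.6% in Bone_1 and at 57.1% and 42.0% in Bone_2. MKRN3, a ring-finger gene known for its part in the timing of puberty, was at 49.6% and 37.8%, and MAGEL2, of the MAGE family, at 37.9% and 37.2%. The 2 CpG-dense windows of MKRN3 were intermediate as well, at 50.6% and 57.0% in Bone_1 and 39.7% and 51.6% in Bone_2. MAGEL2 had 1 intermediate window of 2, at 58.8% and 52.0%. NDN, another MAGE gene, was at 27.2% and 32.5%, on either side of the lower limit, and UBE3A, a ubiquitin ligase, was unmethylated at 0.494% and 0.471%.

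Farther along chromosome 21 lies the cluster of DLK1, a membrane protein related to Notch ligands that restrains fat cell formation, with MEG3, RTL1 and DIO3. The annotated end of MEG3 was heavily methylated, at 93.2% and 75.8%. Just beyond it, on the side that faces DLK1, 5 CpG-dense windows in a row (chr21:65722001-65727000) were intermediate. Their levels were 55.6%, 59.7%, 57.5%, 52.6% and 51.1% in Bone_1. In Bone_2 the MEG3 windows were at 38.1%, 39.4%, 54.5%, 41.6% and 43.8%, lower in every window. In this stretch MEG3 thus held an intermediate plateau next to a heavily methylated end. The end of DLK1 was at 26.0% and 28.5%, under the limit in both samples, though with 500 bp either side its mean was 18% and its difference −18.8 points (Fisher's exact test, adjusted p = 1.08e-17). At DLK1 5 of the 14 CpG-dense windows were intermediate, from 42.3 to 67.7% in Bone_1 and from 31.2 to 57.5% in Bone_2. RTL1, derived from a retrotransposon, was at 81.0% and 63.1%, with no intermediate window among 8.

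DIO3, which encodes the enzyme that inactivates thyroid hormone, had the lowest share of intermediate sites among the 8 regions whose sites were followed. Its end was at 11.3% and 7%, and the CpG-dense windows 2 and 3 kb either side of its densest intermediate window were from 1.12 to 9.35% in Bone_1 and from 0.677 to 17.4% in Bone_2. That window, chr21:66495001-66496000, was inside the gene, had 78 CpG sites and was at 54.7% in Bone_1 and 48.5% in Bone_2. Only 43 of its 55 covered sites (78.2%) were between 25 and 75%, 11 were above and 1 was below. The other intermediate DIO3 window, chr21:66499001-66500000, had 33 CpG sites and was at 67% in Bone_1 and 63.1% in Bone_2. Of its 27 covered sites, 17 were between 25 and 75%. At the first DIO3 window the intermediate level was thus a methylated peak between low windows 2 and 3 kb either side. At NNAT the densest intermediate window, at 50.8% in Bone_1 and 43.6% in Bone_2, was instead a dip. The windows 2 and 3 kb either side of it were from 77.2 to 89.7% in Bone_1. In Bone_2 they were from 50.8 to 76.1%, partly intermediate themselves.

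On chromosome 9, IGF2R, the receptor that clears IGF2, had an unmethylated end at 1.79% and 5.62%. Inside the gene, 3 windows in a row (chr9:96221001-96224000) with 123, 130 and 84 CpG sites were intermediate. They were at 66.9%, 59.9% and 59.5% in Bone_1 and at 60.9%, 64.3% and 39.4% in Bone_2. The second had the most CpG sites of any intermediate window at an imprinted locus, with 4878 calls in Bone_1 but only 280 in Bone_2. Its Wilson intervals were 58.6 to 61.3% and 58.5 to 69.7%, and these take calls as independent although sites on 1 read are not. In pooled calls, mostly those of Bone_1, all 130 sites of this IGF2R window were individually between 25 and 75%. Of the 71 CpG-dense windows of IGF2R 10 were intermediate in all, with 17.1 to 100% of covered sites between 25 and 75%. PLAGL1, a zinc finger gene that limits cell growth, lies on the same chromosome. Its end was at 61.0% and 49.8%, and its 2 CpG-dense windows were both intermediate, at 67.2% and 60.5% in Bone_1 and 48.6% and 41.4% in Bone_2.

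GNAS, the gene of the stimulatory G protein alpha subunit, had 12 intermediate windows among its 16 CpG-dense ones. Its annotated end was at 55.6% and 47.1%. The 12 windows lay in 3 rows. A row of 2 ended with chr13:57486001-57487000, where 127 CpG sites were at 57.7% in Bone_1 and 57.5% in Bone_2. Of the 126 covered sites of that GNAS window, 125 were between 25 and 75%, and the windows 3 and 2 kb below it were nearly unmethylated, at 1.66% and 7.67% in Bone_1 and 3.21% and 1.92% in Bone_2. The second row was 7 windows long (chr13:57516001-57523000), from 41.8 to 59.4% in Bone_1 and from 33.1 to 57.0% in Bone_2. The third was 3 windows long and reached the higher end of GNAS, at 58.1%, 61.9% and 57.5% in Bone_1 and at 57.6%, 46.5% and 48.4% in Bone_2. The gene thus passed from unmethylated to intermediate within a few kilobases.

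Also on chromosome 13, NNAT, a small membrane protein gene of the nervous system, lies inside BLCAP. NNAT was at 50.3% and 37.0%, while the end of BLCAP was at 87.6% and 67.3%. They shared 3 intermediate windows (chr13:66464001-66467000), at 54.8%, 50.8% and 42.2% in Bone_1 and at 36.4%, 43.6% and 37.7% in Bone_2. All 69 covered sites of the middle NNAT window were between 25 and 75%, as were 33 of 35 in the first and 23 of 40 in the third. The other chromosome 13 member, L3MBTL1, a chromatin reader, was methylated at its end of 23 CpG sites, at 87.9% and 74.2%. It had no intermediate window among its 5 CpG-dense ones, of which 3 in Bone_1 and 2 in Bone_2 were under 20%.

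The remaining members lie alone or in pairs. NAP1L5, a nucleosome assembly gene on chromosome 6, was at 50% and 48.4%, a mean of 49.2% ± 1.11 (SD, n = 2) and a difference of 1.57 points that was not called (Fisher's exact test, adjusted p = 0.606). HERC3, the ubiquitin ligase gene that hosts NAP1L5, was at 0.341% and 0.498% at its own end. The 1 intermediate window that HERC3 and NAP1L5 share was at 40.6% and 50.5%. INPP5F, a phosphoinositide phosphatase gene on chromosome 26, had an end at 9.69% and 18.4%, but an internal window, chr26:39937001-39938000, with 76 CpG sites was at 56.1% and 33.8%. All 75 covered sites of that INPP5F window were between 25 and 75%, although the samples differed there by 22.3 points (Fisher's exact test, adjusted p = 4.99e-18). The other intermediate INPP5F window, chr26:39851001-39852000, was at 31% in Bone_1 and 38.5% in Bone_2. Only 10 of its 26 covered sites were between 25 and 75%. DIRAS3, a small GTPase gene on chromosome 3 that restrains growth, was at 55.0% and 62.3% at its end, but on only 10 CpG sites and 40 calls in Bone_1 (95% Wilson interval 39.8 to 69.3%). Its 2 intermediate windows rested on more calls and were at 46.5% and 57.6% in Bone_1 and at 37.0% and 31.4% in Bone_2.

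**Figure D2:**
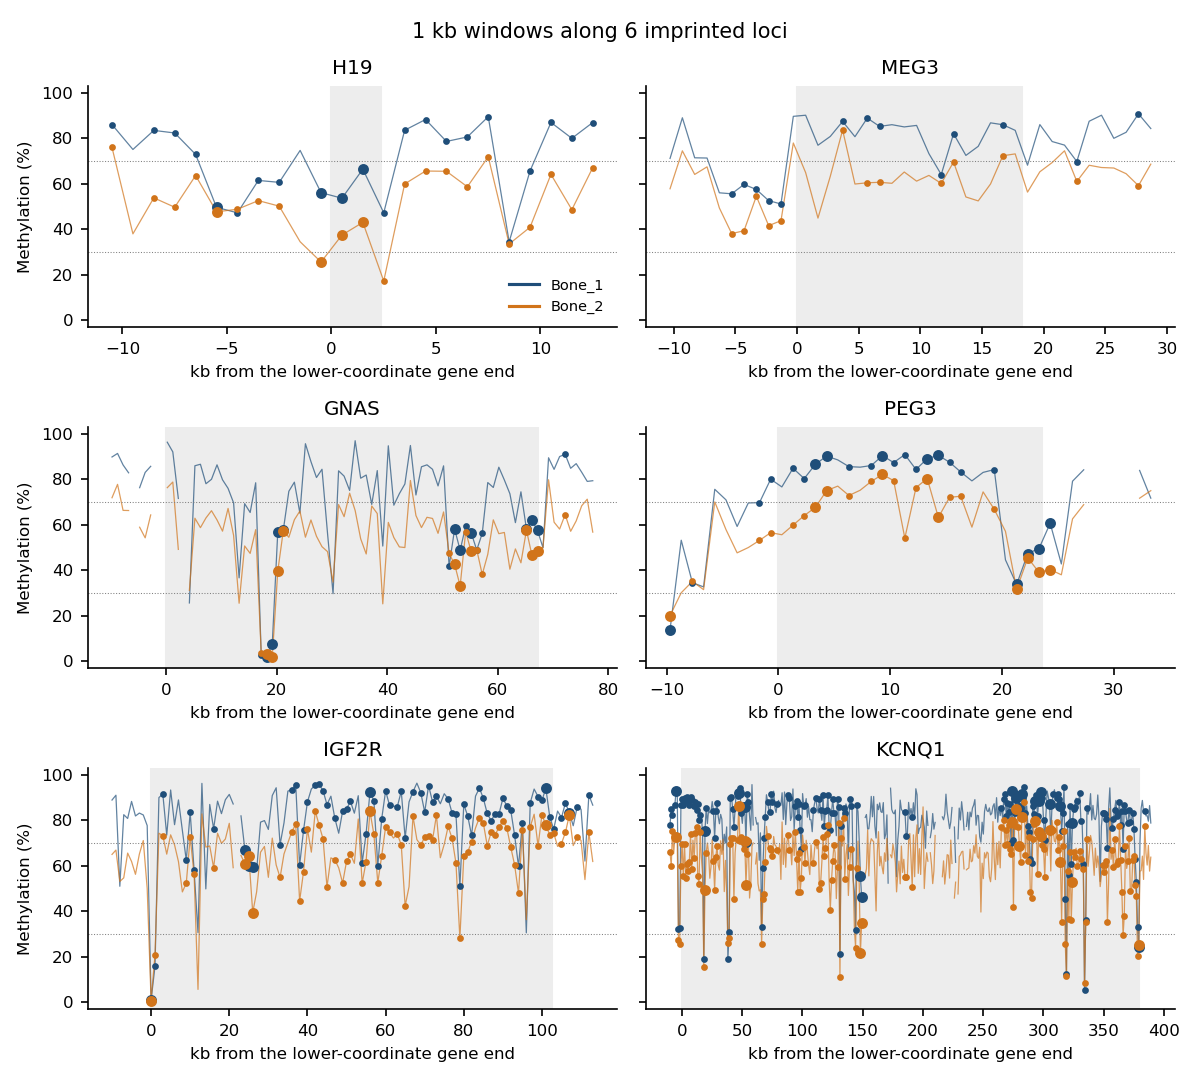
Methylation (%) of 1 kb windows along 6 imprinted loci against distance (kb) from the lower-coordinate end of the gene. Lines join all windows with enough calls, small and large points mark windows of 30 to 59 and of 60 or more CpG sites, grey shading is the gene, and dotted lines mark 30 and 70%; large points fall between the lines at H19, GNAS, PEG3, IGF2R and KCNQ1, and the MEG3 plateau lies just below the gene.

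Over all loci together, 105 of 569 CpG-dense windows (18.5%) were intermediate, against 8.98% of 106213 CpG-dense autosomal windows. In Bone_1 alone the shares were 21.6% and 11.2%, and in Bone_2 alone 56.2% and 43.1%. At least 1 such window was found at 30 of the 36 members, against 29.8% of the 20041 autosomal genes with a CpG-dense window, but the members had more of these windows, a median of 8 against 4. PPP1R9A, NDN, UBE3A, RTL1, GRB10 and L3MBTL1 had none. The excess lay in the densest DNA. Among windows with 60 or more CpG sites, 28 of 104 (26.9%) were intermediate at imprinted loci, against 3.34% of all 21018 such autosomal windows. The shares were 18% and 8.23% at 40 to 59 sites and 15% and 11.9% at 30 to 39 sites, and with fewer sites the order turned, at 9.32% and 13% for 20 to 29 sites and 12% and 25.5% for 1 to 9 sites. Intermediate levels in CpG-poor windows were thus no mark of imprinted loci. Bone_2 was thinly covered where CpG sites were dense, with 6.52 calls per site in the CpG-dense windows of the loci against 21.3 in Bone_1, and at 60 or more sites it had 5 against 21.7.

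**Figure D3:**
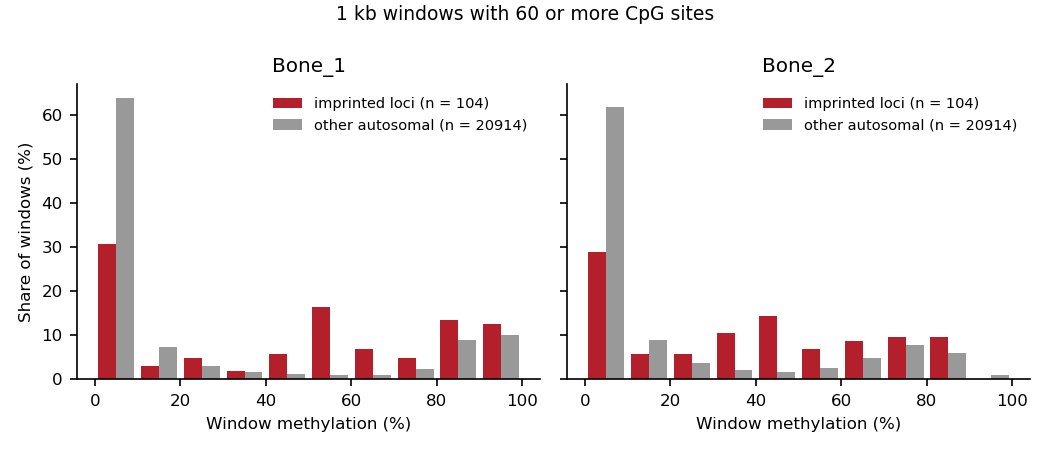
Share (%) of 1 kb windows with 60 or more CpG sites in each 10-point bin of methylation, for imprinted loci and for other autosomal windows, in each sample. At imprinted loci 17 of 104 windows in Bone_1 lie from 50 to 60%, where other autosomal windows have 210 of 20914, and 32 lie under 10%.

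A window can be at an intermediate level because each of its sites is intermediate or because low and high sites are averaged. In the intermediate windows of imprinted loci, 83.5% of 3872 CpG sites with at least 20 pooled calls were themselves between 25 and 75%. In all intermediate CpG-dense windows of the autosomes the share was 57.2% of 264444 sites. The median window had 86.5% of such sites at imprinted loci and 59.4% on the autosomes, with a median SD between sites of 14.0 and 21.9 points. At least 90% of sites were between 25 and 75% in 42 of 100 windows at imprinted loci (42.0%) and in 712 of 9132 on the autosomes (7.80%). Bone_1 gives most of these pooled calls. With Bone_1 alone the shares of sites were 83.2% and 51.4%. With Bone_2 alone they were 76.0% and 74.4%, on 50 sites in 7 windows at imprinted loci, so no contrast was seen in that sample at its depth.

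**Figure D4:**
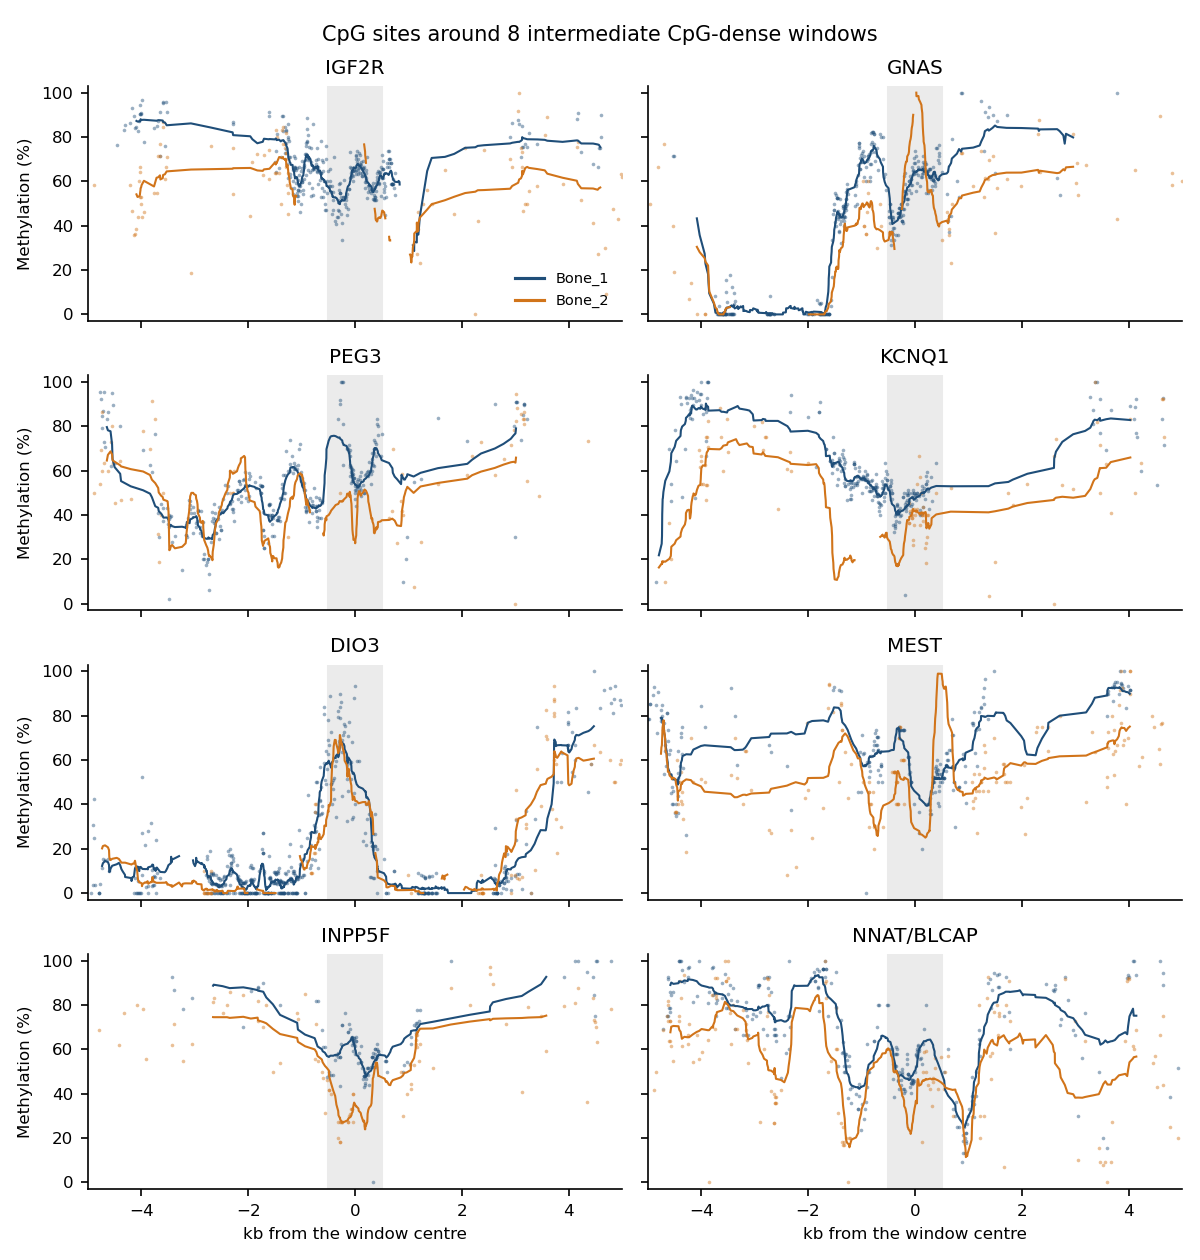
Methylation (%) of single CpG sites with at least 10 calls (points) within 5 kb of the centres of 8 intermediate windows, those with the most CpG sites among different members, in Bone_1 (blue) and Bone_2 (orange). Lines are the weighted level over 21 neighbouring sites where these hold at least 60 calls, grey shading is the 1 kb window; Bone_1 sites cluster between 25 and 75% in the shaded windows, DIO3 has sites above, and Bone_2 has few sites with enough calls.

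Intermediate CpG-dense windows were also more often adjacent at imprinted loci, a pattern picked out after the values were seen. Imprinted loci held 0.536% of the CpG-dense autosomal windows and 1.1% of the intermediate ones. They held 20 of the 812 rows of at least 2 neighbouring intermediate windows (2.46%), 8 of 109 rows of at least 3 (7.34%) and 4 of 26 rows of at least 4 (15.4%). The 4 were at GNAS, MEG3, PEG3 and H19. Of the other 22 rows of at least 4 windows, 17 lay within 1 Mb of the first or last CpG site of a chromosome.

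The samples were then compared end by end to ask whether imprinted genes shared the genome-wide offset. Fisher's exact test on methylated and unmethylated calls, with Benjamini-Hochberg adjustment over 26368 gene ends, called 24 of 36 members different, against 66% of all ends. It compares these libraries, not conditions, and takes calls as independent although sites on 1 read are not, so its p-values are too small. Of the 24 members, 17 were higher in Bone_1 and 7 in Bone_2, and 23% of all ends were called higher in Bone_2. With unweighted means over CpG sites 4 of the 7 were higher in Bone_1, by 0.986 points at PHLDA2, 1.8 at ASCL2, 1.45 at IGF2R and 3.91 at INPP5F, and 5 of the 36 members were higher in Bone_2. The median member end was 1.51 points higher in Bone_1, beside 1.58 points for all autosomal ends. With regions of doubled size these medians were 5.58 and 2.91 points, and with unweighted means over CpG sites 3.37 and 4.28 points. CpG-rich ends ran the other way on the autosomes. Among ends with 60 or more sites, 18 of 28 members (64.3%) were called, 12 higher in Bone_1 and 6 in Bone_2, with a median of 0.899 points. Of all 12824 such autosomal ends 53.3% were called, 1817 higher in Bone_1 and 5019 in Bone_2, with a median of −0.692 points. The difference between the members and the other ends was not tested.

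After H19, the members furthest above their Bone_2 level in Bone_1 were SLC22A18 by 22.6 points, BLCAP by 20.4 points, and PEG10 and SGCE (Fisher's exact test, adjusted p from 1.07e-18 to 1.07e-14 for SLC22A18, BLCAP, PEG10 and SGCE). In the other direction, the differences were −23.9 points at PPP1R9A, −15.5 at SNRPN, −8.73 at INPP5F, −6.42 at GRB10 and −4.43 at PHLDA2 among those called (Fisher's exact test, adjusted p = 4.36e-09, 3.54e-08, 2.78e-08, 7.96e-14 and 6.31e-05). The smaller of these depended on the region. With 500 bp either side of the end INPP5F turned to 1.22 points and GRB10 to 1.98 points, and PHLDA2 was at −0.559 points (Fisher's exact test, adjusted p = 0.11, 0.0104 and 0.522). With doubled regions PHLDA2 turned to 1.9 points (Fisher's exact test, adjusted p = 0.329). DIRAS3 was at −7.3 points and was not called (Fisher's exact test, adjusted p = 0.551). Among the 13 intermediate ends, MEST, MAGEL2, NAP1L5 and DIRAS3 were not called different, which does not show that they were equal. With the null at the odds ratio between all calls of the samples, 23 of the 36 members were called (57.8% of all ends), after 9 had lost the call and 8 had gained one. Among the intermediate ends PEG10, SGCE, MKRN3, PLAGL1 and NNAT lost it (Fisher's exact test, adjusted p = 0.111, 0.11, 0.389, 0.202 and 0.566). All 4 uncalled ones gained it (Fisher's exact test, adjusted p = 7.57e-14 for MEST, 0.000379 for MAGEL2, 8.06e-08 for NAP1L5 and 0.023 for DIRAS3). With 500 bp either side of the end MEST was called at −11.4 points, and with doubled regions MEST was called at 6.17, MAGEL2 at 14.4 and NAP1L5 at 8.09 points (Fisher's exact test, adjusted p = 0.000332, 0.000219, 5.1e-09 and 4.23e-05).

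**Figure D5:**
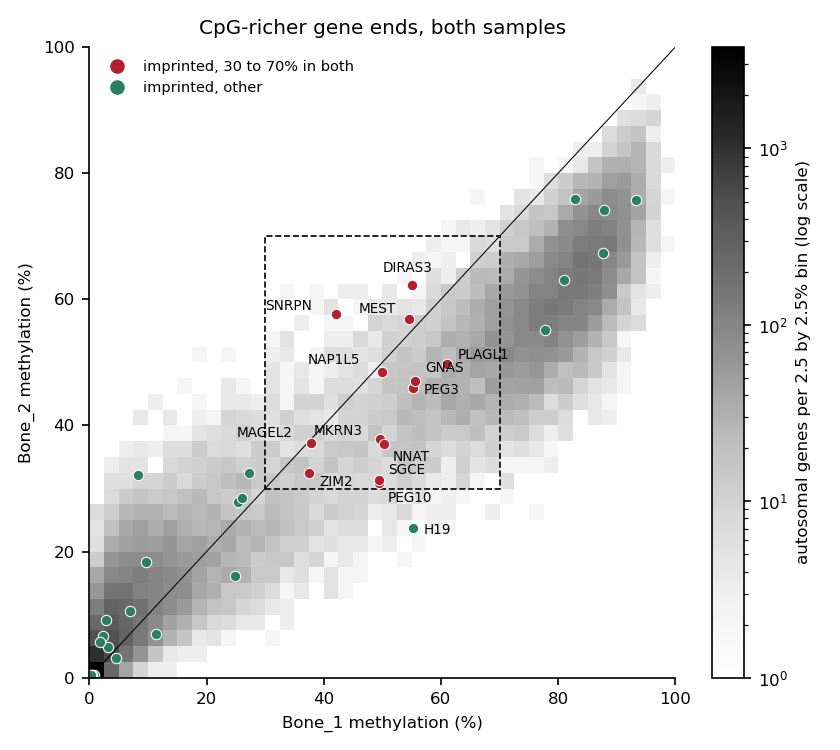
Methylation (%) of CpG-richer gene ends in Bone_1 (x) and Bone_2 (y). Grey shading counts autosomal genes on a log scale, points are the 36 imprinted genes, and the dashed box marks 30 to 70% in both samples; 13 imprinted genes lie in the box, and H19 lies below it at 55.3% and 23.8%.

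Window by window, 1783 of the 2424 windows of the loci with enough calls (73.6%) differed between the samples, against 65.8% of 2189146 windows on chromosomes 1 to 29 and X. Of the 1783, 1745 were higher in Bone_1, as were 1418959 of the 1440351 called over all windows. With a minimum difference of 20 points the order turned, at 32.3% of the loci's windows and 36% of all. Against the odds ratio between all calls 719 (29.7%) differed, beside 20.5% of all. None of these shares is matched for CpG density. Windows of 1 to 9 sites were 850 of the 2424 at the loci and 1133876 of 2090238 on the autosomes. Against that odds ratio, 11.5% at the loci and 11.9% on the autosomes differed at 1 to 9 sites. The shares were 28.7% and 26.9% at 10 to 19, 46.6% and 42% at 20 to 29, and 47.8% and 48.8% at 30 to 39. They were 48.5% and 51.3% at 40 to 59 sites, and 49% and 40% at 60 or more. The median window of the loci was at 83.4% in Bone_1 and 65.5% in Bone_2, a median difference of 16.1 points beside 16.9 points for all windows. In the windows with fewer than 30 CpG sites the median differences at the loci were 16.3, 16.8 and 16.3 points for 1 to 9, 10 to 19 and 20 to 29 sites, beside 17.2, 17.1 and 16.7 points on the autosomes. In denser windows the loci lay above the autosomes, at 16.4 and 15.3 points for 30 to 39 sites, 13 and 11.8 points for 40 to 59 sites, and 6.14 and 0.317 points for 60 or more sites. The last contrast sets unlike levels side by side. At 60 or more sites 31.7% of the loci's windows and 69% of the autosomal ones were under 20% in both samples. Their medians were 54.4% and 4.02% in Bone_1 and 39.8% and 4.73% in Bone_2. The 105 intermediate windows had a median difference of 10.1 points, and 72 of them (68.6%) differed, 68 with Bone_1 higher. Of all intermediate CpG-dense windows of the autosomes 64% differed, 5603 of these 6105 with Bone_1 higher, with a median difference of 9.84 points.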

How the data were processed

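Methylated and unmethylated calls per CpG cytosine came from 2 whole-genome bisulfite libraries. The submitters' processing notes name Trim Galore 0.4.5, FastQC 0.11.5, Bowtie2 and Bismark 0.19.0 with ARS-UCD1.2, while the study's methods name another cattle build. The deposited counts are whole-number counts made by the authors, not normalized, and per the labels each sample has its own file. Calls of both strands were summed to CpG sites. The samples held 462047525 and 406703424 calls on chromosomes 1 to 29 and X. Intervals cover counting error only.

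Genes came from a RefSeq table of ARS-UCD2.0 without strand, and no gene coordinates from it are printed. Its positions were checked against the files: CpG density around gene ends peaked within 250 bp of the ends on 30 of 30 chromosomes and near 36 of 36 members, and the last gene overran the last CpG on 1 chromosome by 100 bp. The check near members averaged the other genes within 5 Mb and left the member out. It therefore could not show a single misplaced member or a small local shift. Promoters had been planned. As no start of transcription was given, the CpG-richer annotated end was used instead. Coordinates in the text are those of windows of the deposited counts. No sequence is printed.

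Levels are methylated calls over all calls, with 95% Wilson intervals and at least 20 calls per sample. Intermediate is 30 to 70% in both samples. Fisher's exact test (two-sided, tested on simulated data) with Benjamini-Hochberg adjustment compared the samples over all gene ends or 1 kb windows of chromosomes 1 to 29 and X. Shares were set beside all autosomal ends or windows. All members were accounted for. Those with an intermediate end or CpG-dense window, and up to 5 differences in each direction, are named, and single sites were followed at 8 regions. The members and lists were chosen with earlier results of these data known. The calculations ran in Python 3.11.15 (numba 0.67.0 and numpy 2.4.6, with scipy 1.17.1 as the check of the test). Alternatives were other call minimums, region sizes, level ranges, CpG densities, unweighted means, the genome-wide odds ratio and leaving out each sample. The lambda control was not analysed here.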

Additional observations from a re-analysis of the deposited data

How the results depend on the processing

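The count of intermediate ends stayed from 10 to 17 under the other settings with 1 end per gene and both samples. The share of all autosomal ends moved as well. The count was 10 with a range of 35 to 65% (6.19% of all autosomal ends) and 10 with 500 bp either side (9.93%). It was 13 with unweighted means (12.4%), 16 with a range of 25 to 75% (18.4%) and 17 with doubled regions (14.1%). With both annotated ends of each gene, chosen after seeing the data, 23 of 72 ends were intermediate (14.2% of all autosomal ends), the median level was 55%, 44 ends differed (71.1% of all) and the median difference was 8.46 points (12.1 for all autosomal ends). The median difference was 5.58 points with regions of doubled size and 3.37 points with unweighted means. A minimum difference of 20 points left 4 ends (18.3% of all ends pass it) and 782 windows (32.3% at the loci, 36% of all). The genome-wide odds ratio of 1.84 left 719 windows (29.7% at the loci, 20.5% of all). These shares of windows are not matched for CpG density. With at least 60 CpG sites, chosen after seeing the data, 28 windows were intermediate. With a range of 30 to 70%, 76.0% of sites were intermediate. The region at the end turned the direction of 10 member differences that were called under at least 1 of the settings compared. With 500 bp either side they became 1.98 points at GRB10, 1.22 at INPP5F, 0.281 at IGF2R, −2.25 at CD81 and 11.7 at NDN. With doubled regions they became 1.9 points at PHLDA2, −4.17 at CDKN1C, −2.82 at TSSC4, 6.17 at MEST and −11.6 at UBE3A. The cause was not tested. Leaving out each sample gave a median end level from 32.3 to 40%, 14 to 18 intermediate ends (beside 13.4% of all autosomal ends in Bone_1 alone and 38.2% in Bone_2 alone), 123 to 320 intermediate windows and 76.0 to 83.2% of intermediate sites. The mean levels of the 36 ends moved by more than the spread between samples at 16 with 500 bp either side, 17 with doubled regions and 10 with unweighted means, and at none with other call minimums or without the deepest cytosines. Of the 11 low ends, 2 had means over 20% with doubled regions. Without turning, 4 differences lost the call and 2 gained one with 500 bp either side, and 4 gained one with doubled regions. Transcript starts were not run, as the table gives none, and the tests between samples could not be run without 1 of them. No paired analysis was possible because there is a single group. Depth in CpG-dense DNA, low in Bone_2, limits all site values there.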

Other observations

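Of 47 further genes reported as imprinted in mammals, 39 were in the gene table, and 3 of their ends (7.69%, beside 11.1% of all autosomal ends) were intermediate: AIRN at 68.3% in Bone_1 and 64.6% in Bone_2, DDC at 58.5% and 57.7%, and ZDBF2 at 66.5% and 51.7%. Under 20% in both samples were 20 (51.3%, beside 45.8%), and the median was 11.3% and 17.2%. These shares are not matched for CpG density, with a median of 76 sites per end against 60 for all autosomal ends. Of all autosomal ends with 60 or more sites 2.35% were intermediate and 81% were under 20% in both samples. Of the 39, 25 (64.1%) differed between the samples, beside 66% of all ends. AIRN is the antisense RNA of the IGF2R domain and ZDBF2 a zinc finger gene.

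Genes whose products set or keep imprints were measured for their own ends, and 14 of 15 were found. TRIM28, a co-repressor at imprinted regions, was at 0.363% and 0.303%, and CTCF, which binds the unmethylated H19 control region, at 0.467% and 0.933%. ZFP57, which binds methylated imprinted copies, was at 7.34% and 19.9%, and DNMT1, the maintenance methyltransferase, at 4.79% and 23.3%. UHRF1 at 31.1% and 38.1% and KHDC3L at 33.9% and 41.6% were intermediate. Of the 14, 8 (57.1%, beside 45.8% of all autosomal ends) were under 20% in both samples. Differing between the samples were 7 (50%, beside 66% of all ends). These shares are not matched for CpG density either, as the 14 had a median of 86.5 sites per end. Of all autosomal ends with 60 or more sites 81% were under 20% in both samples.

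The longest row of intermediate CpG-dense windows on the autosomes was not at an imprinted gene. It was 14 windows long, lay near the start of chromosome 1 from 42001 to 56000 with no annotated gene, and had 39.3 calls per site in Bone_1. The row of 7 windows at GNAS shared the next rank.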
